A study of Mus musculus with 12 samples.

Results

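Glul, Oat, Axin2, Lgr5, Tbx3, Rhbg, Rnf43, Znrf3, Lect2 and Rgn, 10 genes of the pericentral hepatocyte and of WNT signalling, were followed through the RNA of 12 mouse livers. They were taken by gene name from a table of 41708 genes, in which each of the 10 names stands for a single row. All 10 passed the filter on low counts, as did 12615 genes in all. The study asked how loss of Ube4a, which encodes a ubiquitin chain elongation factor, changes gene expression in the fasted liver. The flox group was 5 mice with Ube4a flox/flox alleles and no Cre named in the labels. The LKO group was 7 mice with the same alleles and Albumin-Cre, which deletes Ube4a in cells that use the albumin promoter, chiefly hepatocytes. Both groups were in a C57BL6/J background and had fasted for 16 h, and neither age nor sex of the mice is stated in the labels. Whole liver was sequenced, so endothelial, stellate and immune cells, in which the deletion is not driven, are in every sample. In such bulk samples fewer cells of a type and less RNA per cell cannot be told apart.

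Blood crosses the liver lobule from the portal vein to the central vein, and hepatocytes differ along that path. Endothelial cells around the central vein secrete WNT ligands and R-spondin 3, which keep beta-catenin active in the neighbouring hepatocytes. With TCF factors, beta-catenin then drives a pericentral programme of glutamine synthesis, drug metabolism and feedback inhibitors of the pathway itself. Glul (glutamine synthetase), Oat (ornithine aminotransferase) and Rhbg (an ammonium transporter) take part in the capture of ammonia next to the central vein. Lect2 is a secreted protein and Rgn (regucalcin) a lactonase of vitamin C synthesis. Both have been described as beta-catenin targets in mouse liver, as has the T-box transcription factor Tbx3. Axin2 is a scaffold of the complex that destroys beta-catenin, and Lgr5 is a receptor for R-spondins. Rnf43 and Znrf3 are membrane ubiquitin ligases that remove WNT receptors and are held in check by R-spondins.

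The RefSeq promoter table (build GRCm38.p6) held 5 of the 10 genes, namely Glul, Oat, Axin2, Rnf43 and Lect2. The 250 bases before each start site were searched on both strands for the letters CTTTGAT and CTTTGAA, the core to which TCF factors bind. Of the 5 genes, 1 held a match, Lect2, against 7.48% of the 32851 promoters in the table (3.21% for CTTTGAT and 4.46% for CTTTGAA). Rnf43 had more than 1 start site, each searched in its own window. The count is thus per gene and the share per promoter, and they are not directly comparable. The match was CTTTGAT on the opposite strand, from 32 to 26 bases before the start site. A match is a description of the letters and not a binding site. The windows of Lect2, Oat and Glul are shown because Lect2 had the smallest p of the 10 genes and Oat and Glul are the other enzymes and secreted proteins of the zone that the table held. The first is on the minus strand at chr13:56548539-56548788, the second on the minus strand at chr7:132576399-132576648 and the third on the plus strand at chr1:153899679-153899928. Each is written 5′ to 3′ along its gene, with the match in capitals.
Lect2: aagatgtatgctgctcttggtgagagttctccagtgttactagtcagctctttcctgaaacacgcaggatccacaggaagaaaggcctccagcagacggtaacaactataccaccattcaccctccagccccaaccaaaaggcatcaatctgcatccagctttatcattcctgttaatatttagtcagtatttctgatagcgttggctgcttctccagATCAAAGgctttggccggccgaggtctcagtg
Oat: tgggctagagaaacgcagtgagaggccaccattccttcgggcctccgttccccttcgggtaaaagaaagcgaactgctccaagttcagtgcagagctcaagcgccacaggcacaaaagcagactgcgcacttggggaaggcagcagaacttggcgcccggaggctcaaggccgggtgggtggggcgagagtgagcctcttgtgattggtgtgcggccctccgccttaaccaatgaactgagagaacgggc
Glul: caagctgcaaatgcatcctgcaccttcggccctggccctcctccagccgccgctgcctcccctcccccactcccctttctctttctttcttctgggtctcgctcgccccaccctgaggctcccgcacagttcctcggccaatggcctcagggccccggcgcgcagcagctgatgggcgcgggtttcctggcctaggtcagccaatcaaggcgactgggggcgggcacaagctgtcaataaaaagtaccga

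Library totals ran from 13399874 to 16525053 counts, and levels are given as CPM, the count scaled to the size of its library. The 10 genes together took 0.264% to 0.398% of them. Ube4a checked the labels, at 134 ± 11.6 CPM (SD, n = 5) in flox and 26.6 ± 3.45 CPM (SD, n = 7) in LKO livers, with no overlap of the groups. Hepatocyte markers were high in every library, with Alb at 57490 CPM or more. A pair of libraries, flox replicates 4 and 5, lay apart from the rest on the first principal component, at 48.3 and 68.3. The others ran from -35.4 (flox replicate 3) to 17.2 (LKO replicate 1). The summed level of 14 neutrophil markers was 491 and 766 CPM in these livers and 5.58 to 25.7 CPM in the others. Cxcr2 and Ly6g of this list averaged 1.26 and 0.368 CPM in flox livers, where the median of each was 0 CPM. Both were at 0 CPM in every LKO liver. Other genes of the same list were detected in LKO livers, among them Lcn2 and Csf3r at means of 11.6 and 0.601 CPM. S100a8 and S100a9 had means of 0.108 and 0.216 CPM there. The log2 fold change of each of the 10 genes is also given without flox replicates 4 and 5.

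The genes spanned a wide range of levels. In FPKM, the authors' values scaled by library size and gene length, which allows levels to be compared between genes, Oat was highest at 1002 ± 181 FPKM (SD, n = 12). Glul followed at 259 ± 19.7 FPKM and Rgn at 172 ± 83.8 FPKM. Lect2 was at 48.5 ± 15.5 FPKM. These enzymes and secreted proteins thus lay above the pathway genes in every liver. Tbx3 was at 5.59 ± 1.41 FPKM, Rnf43 at 3.10 ± 0.67 FPKM and Znrf3 at 2.07 ± 0.32 FPKM. Axin2 was at 1.54 ± 0.31 FPKM, Rhbg at 0.819 ± 0.223 FPKM and Lgr5 at 0.226 ± 0.080 FPKM. Neighbours whose ranges over the 12 livers overlapped were Glul and Rgn, Rgn and Lect2, Tbx3 and Rnf43, Rnf43 and Znrf3, and Znrf3 and Axin2. Oat lay wholly above Glul, Lect2 wholly above Tbx3, Axin2 wholly above Rhbg and Rhbg wholly above Lgr5. Lgr5 rested on 13 to 53 counts per liver and Rhbg on 13 to 35, so these values carry the most counting error.

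**Figure D1:**
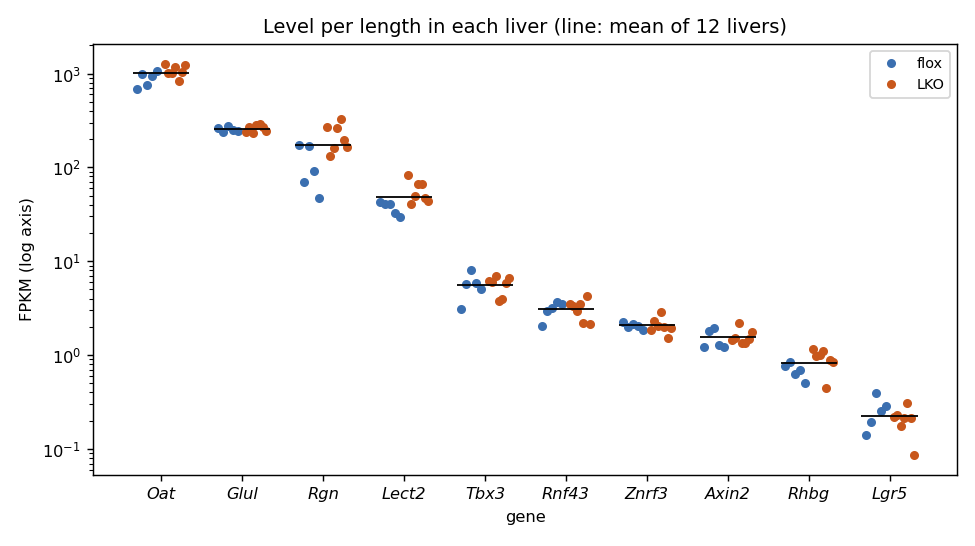
Level per length (FPKM, log axis) of each gene in each of 12 livers, flox in blue and LKO in orange, with a line at the mean of all 12. Oat, Glul, Rgn and Lect2 lie above the other 6 genes in every liver, and Lgr5 is lowest at a mean of 0.226 FPKM.

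Between the groups, none of the 10 genes passed the threshold of 0.05 on the adjusted p in the quasi-likelihood test of edgeR, adjusted over all genes tested by the Benjamini-Hochberg method. Across those genes 0.00793% passed, which was Ube4a alone, and 0.00781% without flox replicates 4 and 5. The adjusted p of the 10 ran from 0.514 to 0.989. By DESeq2, which called 0.143% of its own 18130 genes, none of the 10 passed either. At an unadjusted p under 0.05 there were 3 of the 10, Lect2, Rgn and Oat, all with higher means in LKO livers. Over all genes 7.64% were under that p, 3.49% with higher and 4.15% with lower means in LKO livers. The estimated log2 fold change was above 0 for 9 of the 10, against 48.3% of all genes, and the median was 0.08 against -0.01. With flox replicates 4 and 5 left out it was above 0 for 7 of the 10, against 51.0% of all genes, with a median of 0.11 and 2 genes, Oat and Lect2, at an unadjusted p under 0.05 (5.27% of all genes in either direction). For none of the 10 were the groups without overlap in CPM, against 0.484% of all genes.

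**Figure D2:**
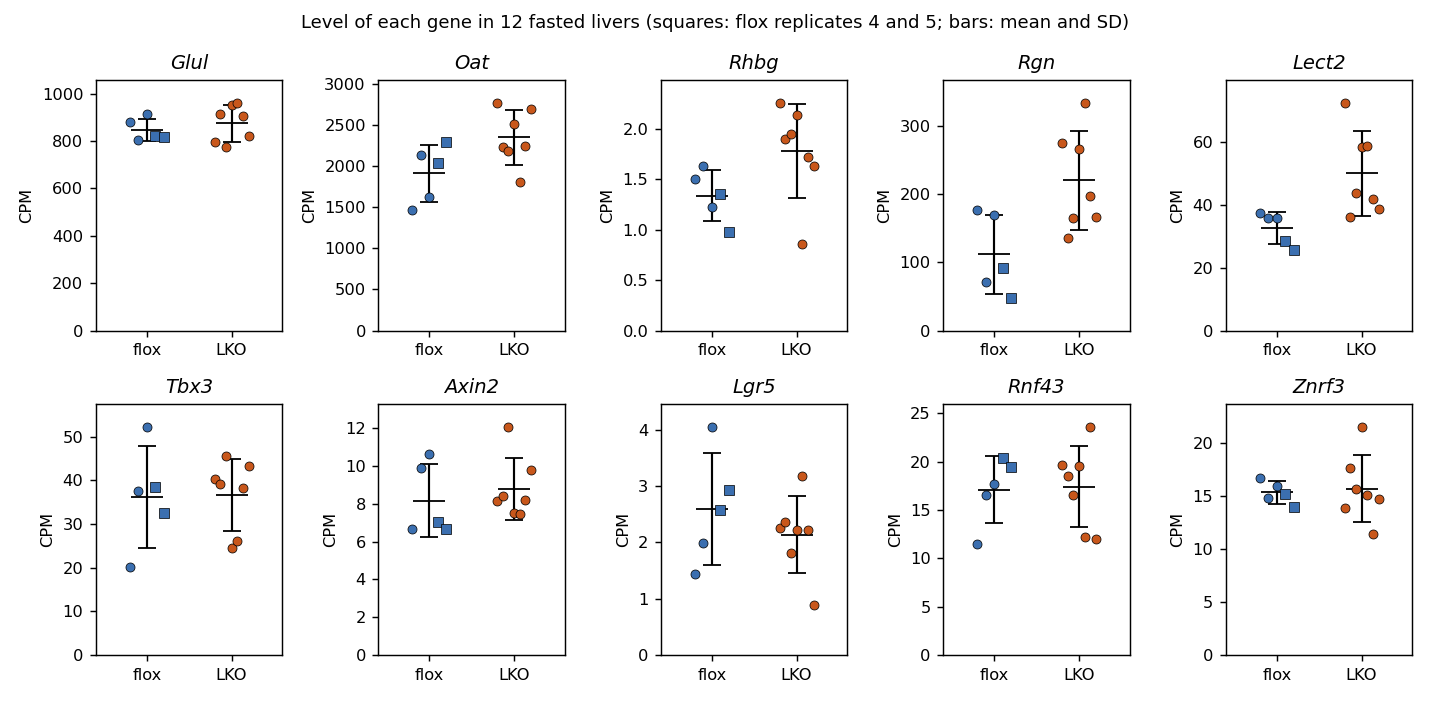
CPM of each gene in 5 flox and 7 LKO livers; each point is 1 liver, squares are flox replicates 4 and 5, and bars give the mean and SD. For Lect2, 6 of 7 LKO livers lie above every flox liver, while for Glul 2 LKO livers lie above and 2 below the flox range.

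Glul, the enzyme that makes glutamine from ammonia and marks the hepatocytes around the central vein, sits on the plus strand of chromosome 1, at 164242454 to 164257514. Coordinates here and for the genes that follow are those of the C57BL/6NJ annotation in the table. It measured 878, 803, 914, 822 and 816 CPM in flox replicates 1 to 5. In LKO livers it ran from 775 CPM through a median of 906 to 962 CPM. Neither group stood apart, with 2 LKO livers above and 2 below the whole flox range. The means were 846 ± 47.3 CPM (SD, n = 5) and 874 ± 76.8 CPM (SD, n = 7). The log2 fold change, LKO over flox, was 0.05 (standard error 0.08, 95% confidence interval -0.12 to 0.22; edgeR adjusted p = 0.904). That interval reaches from 0.918-fold to 1.16-fold, the narrowest of the 10 genes, and without flox replicates 4 and 5 the estimate was 0.01.

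Oat, which breaks ornithine down and shares the pericentral zone with Glul, sits on the minus strand of chromosome 7, at 142487582 to 142507930. It measured 1469, 2131, 1628, 2036 and 2289 CPM in flox replicates 1 to 5. The LKO livers ran from 1809 CPM through a median of 2248 to 2773 CPM. The groups overlapped, with 3 LKO livers above every flox liver and none below the flox range. The fold change was 1.23 (95% confidence interval 1.01 to 1.497), or 0.30 on the log2 scale, with an unadjusted p of 0.0403 and an adjusted p of 0.650 in edgeR. Flox replicates 4 and 5 were not low for this gene, and without them the log2 fold change was 0.43 (interval 0.11 to 0.75; adjusted p = 0.903).

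Rhbg, the ammonium transporter of the basolateral membrane, sits on the minus strand of chromosome 3, at 91641835 to 91653670. It was low, at 1.499, 1.63, 1.22, 1.35 and 0.9754 CPM in flox replicates 1 to 5. The LKO livers ran from 0.859 CPM through a median of 1.90 to 2.26 CPM. Of the 7 LKO livers, 6 lay above every flox liver and LKO replicate 5 lay below all of them. The margin was small for LKO replicate 7, at 1.632 CPM (24 counts), over flox replicate 2, at 1.627 CPM (23 counts). The log2 fold change was 0.41 with a standard error of 0.25 (interval -0.13 to 0.95; edgeR adjusted p = 0.708), and 0.29 without flox replicates 4 and 5.

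Lect2, a hepatokine secreted by hepatocytes, had the smallest p of the 10 genes. It sits on the minus strand of chromosome 13, at 57796642 to 57802720. Its promoter held the only match to the TCF core among the 5 genes searched, and the other 5 genes could not be searched. A link of that match to the values below was not tested. It measured 37.2, 35.8, 35.8, 28.5 and 25.7 CPM in flox replicates 1 to 5. The LKO livers ran from 36.1 CPM through a median of 43.7 to 72.5 CPM. All 7 LKO livers lay above the flox mean and 6 lay above every flox liver, LKO replicate 2 being the exception. The means were 32.6 ± 5.18 CPM (SD, n = 5) and 49.98 ± 13.4 CPM (SD, n = 7). The fold change was 1.53 (95% confidence interval 1.18 to 1.99), or 0.62 on the log2 scale, with an unadjusted p of 0.00362 and an adjusted p of 0.514 in edgeR. DESeq2 gave an adjusted p of 0.150. Its rank by p was 88 of 12615 genes.

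The lowest flox values of Lect2 were those of replicates 4 and 5. Without them the log2 fold change was 0.46 (interval 0.02 to 0.90; edgeR adjusted p = 0.903). The other 3 flox livers lay close together, at 36.3 ± 0.813 CPM (SD, n = 3), and the same 6 LKO livers lay above them. The part of the pair's other differences in this result was not tested.

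Rgn, which encodes the lactonase regucalcin, had the largest estimate of the 10. It sits on the plus strand of chromosome X, at 15838979 to 15852134. It measured 177, 71.9, 170, 92.3 and 48.2 CPM in flox replicates 1 to 5. In LKO livers it ran from 136 CPM through a median of 198 to 335 CPM. All 7 LKO livers lay above the flox mean and 4 lay above every flox liver. The means were 112 ± 58.3 CPM (SD, n = 5) and 220.5 ± 72.9 CPM (SD, n = 7). The fold change was 1.97 (95% confidence interval 1.18 to 3.30), or 0.98 on the log2 scale, with an unadjusted p of 0.0136 and an adjusted p of 0.625 in edgeR.

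The lowest Rgn liver was flox replicate 5, followed by flox replicates 2 and 4. Without replicates 4 and 5 the log2 fold change was 0.66 (interval -0.12 to 1.44; edgeR adjusted p = 0.920). The highest was LKO replicate 5, the same liver that was lowest for Rhbg. The spread of Rgn within groups was 0.63 on the log2 scale, above that of 98.8% of the 500 genes nearest to it in mean level, whose median was 0.15. For Lect2 and Tbx3 the spread was 0.33 and 0.42, above 91.2% and 92.6% of their nearest 500. Glul was on the other side, at 0.11, above 17% of its nearest 500. The genes thus differed among themselves in how steady they were from liver to liver, apart from any difference between the groups.

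Tbx3 and the genes that act in the WNT pathway itself had estimates on both sides of 0. Tbx3 (chromosome 5, 127587314 to 127603408, plus strand) measured 20.1, 37.6, 52.2, 38.4 and 32.5 CPM in flox replicates 1 to 5. In LKO livers it ran from 24.4 CPM through a median of 39.1 to 45.5 CPM, wholly inside the flox range. The log2 fold change was 0.02 (interval -0.44 to 0.48; edgeR adjusted p = 0.989), and 0.01 without flox replicates 4 and 5.

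Axin2, whose RNA is widely used as a readout of beta-catenin activity, sits on the plus strand of chromosome 11, at 115841737 to 115878825. It measured 6.65, 9.90, 10.6, 7.01 and 6.64 CPM in flox replicates 1 to 5. In LKO livers it ran from 7.46 CPM through a median of 8.21 to 12.1 CPM. A single LKO liver, replicate 3, lay above the flox range and none lay below it. The log2 fold change was 0.11 (interval -0.24 to 0.46; edgeR adjusted p = 0.891). Leaving out flox replicates 4 and 5 changed the sign of the estimate, to -0.04 (interval -0.43 to 0.35).

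Lgr5 (chromosome 10, 122269036 to 122416358, minus strand) was the only gene of the 10 with an estimate below 0 in the fit over all 12 livers. It measured 1.44, 1.98, 4.05, 2.58 and 2.93 CPM in flox replicates 1 to 5, and from 0.884 CPM through a median of 2.23 to 3.17 CPM in LKO livers. LKO replicate 7 lay below every flox liver and the other 6 lay within the flox range. The log2 fold change was -0.28 with a standard error of 0.30 (interval -0.92 to 0.37; edgeR adjusted p = 0.846). It was -0.21 without flox replicates 4 and 5, and -0.06 without flox replicate 3, the highest liver. At this depth the interval includes both a fall to 0.529-fold and a rise to 1.29-fold.

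The means of the receptor ligases differed by less than their spread. Rnf43 (chromosome 11, 91995246 to 92083072, plus strand) measured 17.1 ± 3.48 CPM (SD, n = 5) in flox and 17.4 ± 4.21 CPM (SD, n = 7) in LKO livers. Its log2 fold change was 0.03 (interval -0.36 to 0.41; edgeR adjusted p = 0.982), and 0.20 (interval -0.26 to 0.65) without flox replicates 4 and 5. Flox livers ran from 11.5 to 20.4 CPM and LKO livers from 11.97 to 23.6 CPM. Znrf3 (chromosome 11, 2377291 to 2555708, minus strand) measured 15.3 ± 1.06 and 15.7 ± 3.19 CPM. Its log2 fold change was 0.03 (interval -0.24 to 0.31; edgeR adjusted p = 0.967), and -0.02 without that pair. For Znrf3 the LKO livers spread to both sides of the flox range, with 2 above and 2 below it. A p that misses the threshold does not show that the groups are alike, and the intervals give the sizes that remain possible.

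**Figure D3:**
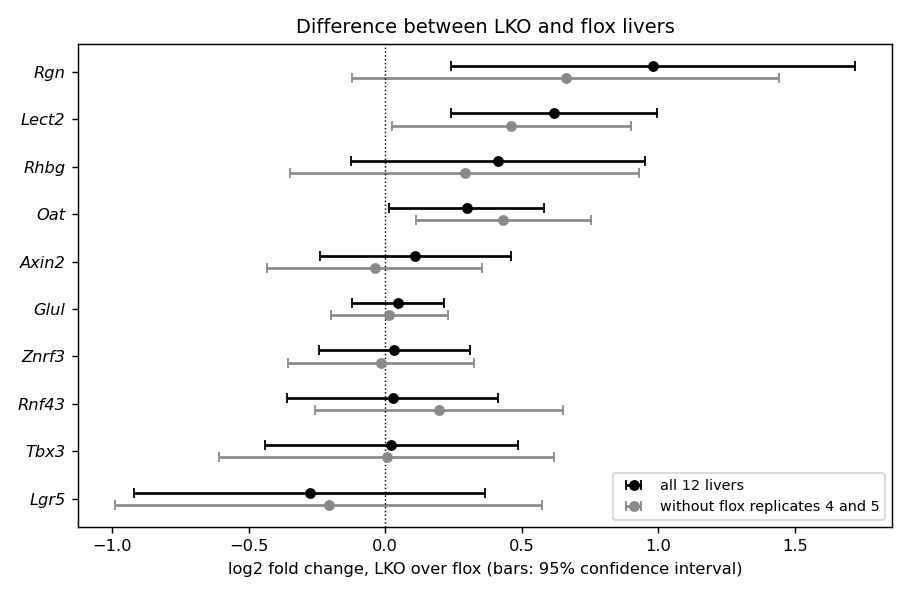
Log2 fold change of each gene, LKO over flox, from edgeR with its 95% confidence interval, for all 12 livers (black) and without flox replicates 4 and 5 (grey). Rgn, Lect2 and Oat have intervals above 0 with all livers, and without the pair Lect2 and Oat do.

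The genes were then compared with one another across livers, over 45 pairs, on log2 CPM with permutation p-values adjusted over the pairs. Lect2 and Rgn followed each other most closely, with Pearson r = 0.866 (permutation p = 0.0004, adjusted p = 0.018) and Spearman rho = 0.874 (permutation p = 0.0004, adjusted p = 0.018) over 12 livers. This was the only pair past the threshold. Without the livers farthest from the median of Lect2, LKO replicates 1 and 5, r was 0.848. Leaving out flox replicates 4 and 5, r was 0.779 and rho 0.794 over 10 livers (permutation p = 0.00578 and 0.00867, adjusted p = 0.130 and 0.164), and no pair passed. The permutations shuffled livers across both groups, so a group difference shared by both genes enters these p-values. Within the 7 LKO livers alone r was 0.892 (exact permutation p = 0.0125, unadjusted, for a pair picked by its r over all livers). With the group means taken out of all 12 livers r was 0.745, for which no p was computed. The livers high in both genes were LKO replicates 1, 4 and 5.

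The next pair was Axin2 with Tbx3, at r = 0.731 (permutation p = 0.00717, adjusted p = 0.161) and rho = 0.741 (permutation p = 0.00793, adjusted p = 0.178) over 12 livers. Without LKO replicate 3 and flox replicate 3, the livers farthest from the median of Axin2, r was 0.629. Over the 10 livers other than flox replicates 4 and 5 r was 0.846 (permutation p = 0.00176, adjusted p = 0.0792). Oat with Rhbg followed at r = 0.524 (permutation p = 0.0791, adjusted p = 0.777) and rho = 0.622 (permutation p = 0.0346, adjusted p = 0.519), and r was 0.656 without flox replicates 1 and 3. Over all 45 pairs the median r was 0.09, with 25 pairs above 0. Points from 1 library share its depth and its makeup of cells.

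**Figure D4:**
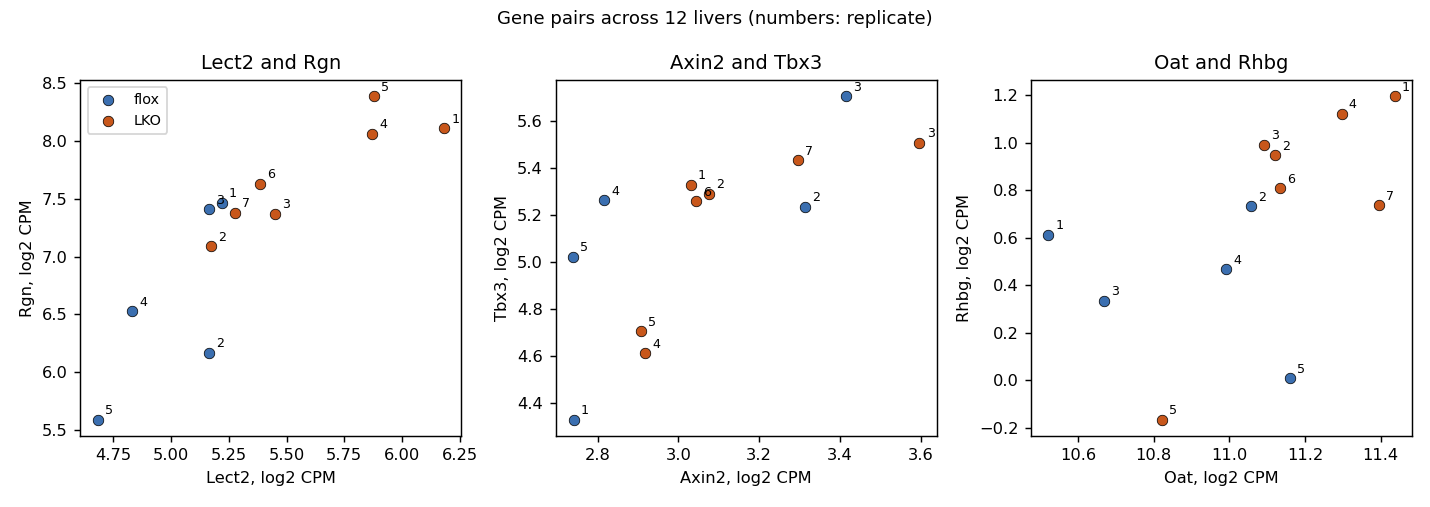
Log2 CPM of Lect2 against Rgn, Axin2 against Tbx3 and Oat against Rhbg in 12 livers, flox in blue and LKO in orange, with replicate numbers. Lect2 and Rgn are high in the same livers (r = 0.866), and LKO replicates 1, 4 and 5 are high in both.

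The genes most like Glul, Axin2 and Lgr5 were looked for among 11885 others with a mean of at least 1 CPM, by Pearson r over the 12 livers. They were picked for the highest r, so the values are a description. For Glul the 3 highest had r from 0.894 to 0.899, and the 1 of them with a symbol was Rab5a (r = 0.895, and 0.902 without flox replicates 4 and 5), a small GTPase of early endosomes. For Axin2 they were AA415398 (0.903), the RNA-binding splicing factor Rbm5 (0.902) and the stress-response transcription factor Ddit3 (0.868). For Lgr5 they were Ocrl (0.818), a phosphoinositide phosphatase, Mllt4 (0.803), an adaptor of cell junctions, and Arhgap17 (0.799), a GTPase-activating protein.

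Other genes of the same zone were read from a list of 38 pericentral enzymes and transporters, of which 35 were in the table and tested. None passed the threshold, 25 had a log2 fold change above 0 and 10 below it, and the median was 0.15 against -0.01 over all genes. At an unadjusted p under 0.05 there were 5 of 35 with higher and 0 with lower means in LKO livers, against 3.49% and 4.15% of all genes. Akr1c6, a hydroxysteroid dehydrogenase, measured 461 ± 131 CPM (SD, n = 5) in flox and 713 ± 119 CPM (SD, n = 7) in LKO livers (log2 fold change 0.63, edgeR adjusted p = 0.505). Aldh1a1, a retinaldehyde dehydrogenase, measured 1018 ± 364 and 1513 ± 350 CPM, and the glutathione transferase Gstm6 18.2 ± 3.003 and 22.7 ± 3.55 CPM. The most abundant per length was Cyp2e1, which oxidises ethanol and other small molecules. It ran from 8908 to 16084 CPM in flox and from 13375 to 16029 CPM in LKO livers (log2 fold change 0.18). Hpd and Ces1c, the next in level per length, had log2 fold changes of 0.01 and 0.14. Reads of gene families such as Akr1c, Gstm, Ces1 and Serpina3 could be shared between near-identical members.

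In flox replicates 4 and 5 this list summed to 22586 and 19408 CPM, against 28729 to 32271 CPM in the other 10 livers. Cyp2e1 weighed most in this sum, at 8908 to 16084 CPM in flox livers. Averaged over genes, log2 CPM relative to the mean of all livers was -0.1045 and -0.2191 in the pair. It ran from -0.2001 to 0.2182 in the other 10 livers, so flox replicate 4 lay within their range. Without flox replicates 4 and 5 the pericentral median was 0.06. Then 20 of 35 estimates were above 0 and 1 was at an unadjusted p under 0.05, Akr1c6, at a log2 fold change of 0.40. Aldh1a1 was at 0.28, against 0.57 with all livers, and Cyp2e1 at -0.05. The part of these livers' other differences in the pericentral values was not tested.

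Genes of the opposite, periportal end were read in the same way. Of 34 entries 33 were tested and none passed, with 20 above 0, 13 below 0 and a median of 0.08. At an unadjusted p under 0.05 there were 6 of 33 with higher and 0 with lower means in LKO livers, against 3.49% and 4.15% of all genes, and 3 of 33 with higher means once flox replicates 4 and 5 were left out. Sult5a1, a sulfotransferase, measured 4.87 ± 1.45 and 10.9 ± 4.71 CPM (log2 fold change 1.16, edgeR adjusted p = 0.505). Cyp2f2, a cytochrome P450 much used as a periportal marker, measured 388 ± 66.1 and 590 ± 129 CPM (0.60), and the urea cycle enzyme Otc 190 ± 35.1 and 271 ± 50.6 CPM (0.51). The most abundant per length, the serpin Serpina3k, arginase Arg1 and argininosuccinate synthase Ass1, had log2 fold changes of 0.44, -0.02 and -0.05. Without flox replicates 4 and 5 the median was 0.08, and Sult5a1, Cyp2f2 and Otc stood at 1.16, 0.47 and 0.36.

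Other WNT targets were tested for 16 of 23 entries, and none passed. Their estimates were above 0 for 9 and below 0 for 7, with a median of 0.04, and none had an unadjusted p under 0.05 in edgeR. The smallest p belonged to Sox4, a transcription factor, at 1.02 ± 0.48 and 1.46 ± 0.30 CPM, Lrp4, a low-density lipoprotein receptor relative, at 56.3 ± 5.36 and 51.7 ± 3.62 CPM, and the TCF factor Tcf7 at 4.15 ± 1.03 and 3.40 ± 0.54 CPM. Outside the rule for named genes, the feedback inhibitor Notum is given for its known role. It measured 22.9 ± 3.44 and 23.5 ± 2.48 CPM (log2 fold change 0.03). Without flox replicate 1 the median of this list was -0.05. With flox replicates 4 and 5 left out it was 0.01, with 8 above 0 and 8 below, but single genes moved by more. Cd44, a cell surface receptor, went from -0.78 to 1.06 (unadjusted p = 0.0136 in edgeR without the pair), and the cyclin Ccnd1 from -0.49 to 0.53. Both are named after their values were seen. Tcf7 went from -0.29 to -0.04.

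Most ligands of the pathway gave few counts in whole liver, while Wnt5b had 3191 counts over the 12 livers. Of 25 WNT ligands, R-spondins and secretion factors, 10 passed the filter on low counts and none passed the test, with 2 estimates above 0 and 8 below it. The smallest p belonged to Wls, which carries WNT proteins to the surface (3.91 ± 2.15 and 3.03 ± 0.66 CPM), Wnt5b (18.9 ± 1.88 and 16.6 ± 4.22 CPM) and Wnt9a (1.07 ± 0.46 and 0.905 ± 0.224 CPM). The signals of the central vein are given outside the rule for their known role. R-spondin 3 (Rspo3) ran from 2.45 to 6.22 CPM in flox and from 2.23 to 4.78 CPM in LKO livers. Wnt2 ran from 0.994 to 2.68 and from 1.09 to 4.197 CPM, and Wnt9b from 0.849 to 2.09 and from 0.594 to 1.97 CPM. The groups overlapped for each.

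The median of the ligand list was -0.07 with all livers and 0.12 without flox replicates 4 and 5, where 6 estimates were above 0 and 4 below. The estimate for Wls changed sign, from -0.38 to 0.35, and that for Wnt9a went from -0.24 to -0.40. Wnt5a, named after its values were seen, went from -0.24 to -0.63 (unadjusted p = 0.0458 in edgeR). Markers of the cells that make these signals moved with that pair. The summed level of 14 sinusoidal endothelial markers was 525 and 703 CPM in flox replicates 4 and 5, 468 CPM in LKO replicate 1 and 142 to 310 CPM in the other 9 livers. Over the 14, the median log2 fold change was -0.35 with all livers and 0.69 without the pair. For 9 central vein endothelial markers, which include Rspo3, Wnt2 and Wnt9b, it was -0.20 and 0.39. The part of the endothelial share in the ligand values was not tested.

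On the receiving side, 11 of 17 WNT receptors were tested and none passed. Fzd6, a Frizzled receptor, had the smallest p, at 6.87 ± 0.90 and 5.25 ± 0.65 CPM (log2 fold change -0.39, unadjusted p = 0.00985, edgeR adjusted p = 0.625; -0.28 without flox replicates 4 and 5). Fzd5 measured 13.9 ± 3.76 and 11.9 ± 1.47 CPM and Ror1, a receptor kinase for WNT ligands, 2.36 ± 0.84 and 3.11 ± 0.85 CPM. With flox replicates 4 and 5 left out Fzd5 went from -0.23 to -0.40 (unadjusted p = 0.0187 in edgeR) and Ryk, named after its values were seen, from -0.07 to -0.19 (unadjusted p = 0.0475), while the unadjusted p of Fzd6 was 0.096. The median of the receptors was -0.03 in both fits. The destruction complex and signalosome had 18 of 21 tested, none past the threshold, with 9 above 0, 9 below 0 and a median of 0.01. Its smallest p belonged to the casein kinases Csnk1d (96.7 ± 5.86 and 89.1 ± 6.71 CPM) and Csnk1e (7.85 ± 1.22 and 6.49 ± 1.39 CPM) and to tankyrase, Tnks (25.0 ± 0.47 and 27.0 ± 2.24 CPM). Without the pair 6 were above 0 and 12 below, and Csnk1e went from -0.27 to -0.17.

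TCF factors and their cofactors had 17 of 20 tested, none past the threshold, with 5 above 0, 12 below 0 and a median of -0.04. In this list the groups did not overlap for Bcl9 and Tle4, against 0.19% of all genes with lower and 0.293% with higher values in LKO livers. Bcl9, a coactivator that binds beta-catenin, ran from 6.80 to 9.02 CPM in flox and from 4.28 to 6.63 CPM in LKO livers (log2 fold change -0.37, edgeR adjusted p = 0.625). Tle4, a corepressor of TCF factors, ran from 10.8 to 11.99 and from 12.1 to 13.7 CPM (0.18, adjusted p = 0.635). The margins between the groups were small, from 6.63 to 6.80 CPM for Bcl9 and from 11.99 to 12.09 CPM for Tle4. Without flox replicates 4 and 5 Bcl9 was at -0.32 and Tle4 at 0.16, and no gene of the list had an unadjusted p under 0.05 in edgeR. Pygo2, a partner of Bcl9, measured 21.0 ± 1.06 and 19.1 ± 2.22 CPM. Notum and Kremen1 are on more than 1 list, as is Tcf7. Secreted antagonists had 6 of 19 tested, none past the threshold, with 3 above 0 and 3 below it. Frzb measured 1.21 ± 0.71 and 0.744 ± 0.257 CPM, Sfrp5 0.927 ± 0.353 and 1.34 ± 0.94 CPM and Kremen1, a receptor for Dickkopf proteins, 20.7 ± 2.01 and 21.9 ± 1.68 CPM. These values also moved with flox replicates 4 and 5. With that pair left out Frzb went from -0.70 to -0.11, Sfrp5 from 0.54 to 0.21 and Kremen1 from 0.08 to 0.16. Dkk3, a Dickkopf family member named after its values were seen, went from -0.24 to 0.93 (unadjusted p = 0.00302 in edgeR). No gene of any list passed the adjusted threshold without the pair, and the part of these livers' other differences in these values was not tested.

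**Figure D5:**
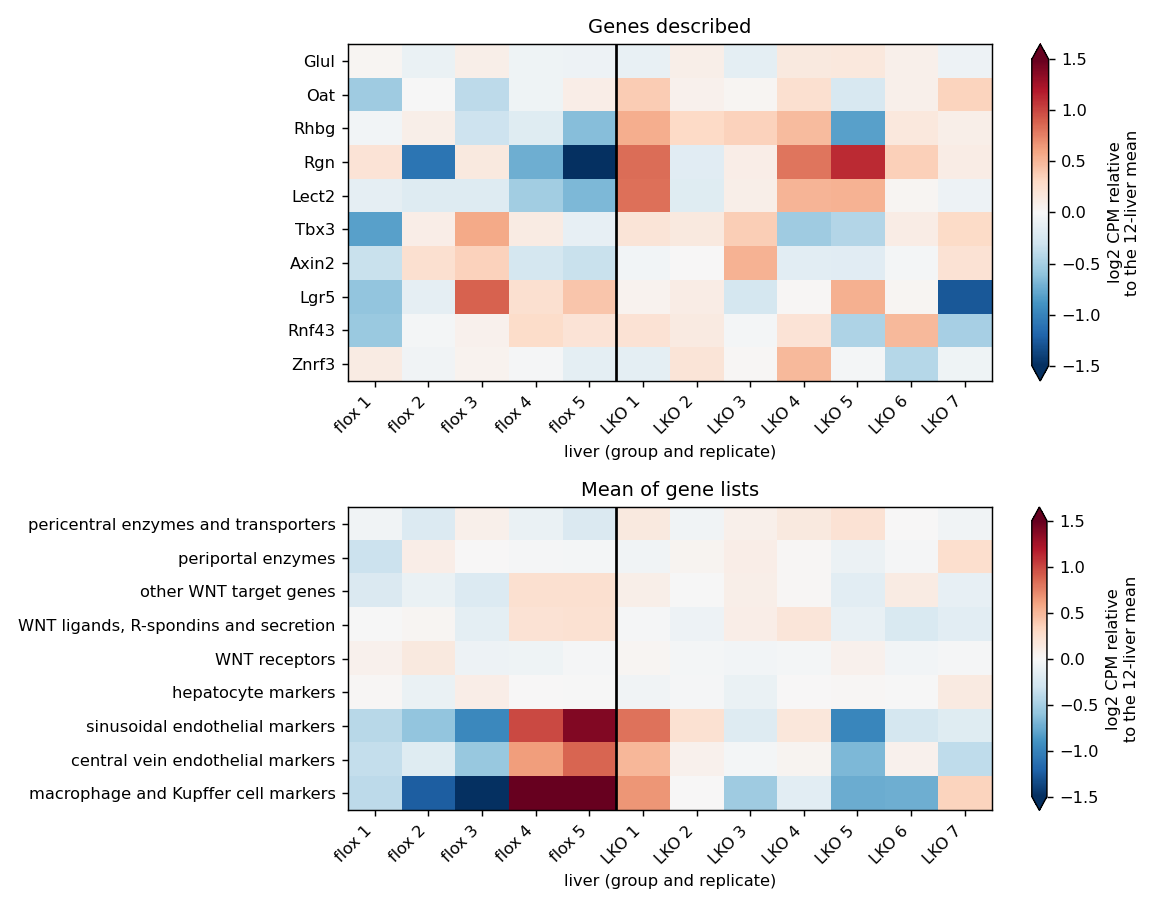
Log2 CPM relative to the mean of 12 livers for each gene (top) and for the mean of each gene list (bottom), with colour from blue (lower) to red (higher) and values beyond 1.5 shown at the end colours. The pericentral list runs from -0.22 to 0.22 across livers, while macrophage and endothelial markers are highest in flox replicates 4 and 5.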

How the data were processed

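The labels' protocols give TRIzol for RNA of the 12 livers (5 flox, 7 LKO) and a NEBNext Ultra kit for the libraries. Whole-number counts per gene were used as the authors deposited them. The submitters' processing notes name build GRCm39 and, in no stated role, DESeq2 1.20.0, featureCounts 1.5.0-p3, HISAT2 2.0.5, CASAVA 1.8 and fastp. The identifiers and coordinates in the table are of the C57BL/6NJ annotation. No source used here gives the strand setting or the treatment of shared reads. The deposited FPKM values were checked against the counts and differ from them by gene length and 1 factor per library only.

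Genes passing filterByExpr (12615) were scaled by TMM and tested with edgeR 4.0.16 (glmQLFit, robust, glmQLFTest) without covariates, adjusted p (Benjamini-Hochberg) being read against 0.05. CPM values use the scaled totals, and log2 CPM adds 0.5 counts. Correlations used 100000 permutations, and all 5040 orders within the LKO livers. The code was tested on simulated data. R 4.3.3, limma 3.58.1 and DESeq2 1.42.0 were used for alternatives: other scaling and filters, DESeq2, voom with quality weights, log2(FPKM + 0.1) and log2(FPKM + 1), the replicate number as a block, and leaving out livers.

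The 10 genes and all lists were chosen with earlier results of these data known, so no list is independent support. The rule named all 10 genes, the 3 genes with the smallest p of each pathway or zone list, the 3 most abundant of the zone lists and the 3 genes most like Glul, Axin2 and Lgr5. Replicates are separate mice per the labels. Libraries of a group always differed by more than counting noise, with chi-square over its degrees of freedom from 9.07 to 94.05.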

Additional observations from a re-analysis of the deposited data

How the results depend on the processing

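No gene of the 10 passed the threshold under any of the 22 alternatives, where the smallest adjusted p was 0.150, for Lect2 with DESeq2. Glul, Oat, Lgr5, Rhbg, Lect2 and Rgn kept their direction under all 22. Lect2 ran from 0.46 to 0.70 on the log2 scale, Rgn from 0.66 to 1.204, Oat from 0.21 to 0.43 and Rhbg from 0.17 to 0.53. Lgr5 ran from -0.44 to -0.05. Estimates near 0 changed sign. Without flox replicates 4 and 5, Axin2 was at -0.0387 and Znrf3 at -0.0152. With total counts Tbx3 was at -0.0028 and Rnf43 at -0.0021. Rnf43 was at -0.0517 with voom quality weights. With each liver left out in turn, Tbx3 ran from -0.1353 to 0.1923, Rnf43 from -0.0934 to 0.0943 and Znrf3 from -0.0684 to 0.0886. The cause was not tested. Over all genes, the count past the threshold was 1, against 26 with DESeq2, 2 with the replicate block (Ube4a and Clec2d) and 1 to 2 with each liver left out, where Ldhd passed without LKO replicate 7. Correlated pairs past the threshold numbered 1, and 0 without flox replicates 4 and 5. The labels state no pairing by replicate number. The correlation of same-numbered livers was -0.28 to 0.10, and low values do not exclude a pairing. With the replicate block Tbx3 was at -0.0281. The order of levels per length was the same when computed from CPM and gene length.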

Other observations

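Markers of other liver cells also varied between livers. Macrophage and Kupffer cell markers summed to 744 and 1066 CPM in flox replicates 4 and 5 and to 52.6 to 335 CPM in the other livers. Over their 13 tested genes the median log2 fold change was -1.198, and 0.84 without that pair over 12 genes. Stellate cell markers had a median of -0.27, and 0.32 without the pair. Of 6 tested cholangiocyte markers 5 had estimates above 0, with a median of 0.28. Without the pair 4 of 7 tested were above 0, with a median of 0.21. Of 7 tested hepatocyte markers 3 had estimates above 0, with a median of -0.14, and -0.04 without the pair. No marker of these lists passed the threshold in edgeR.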
